A study of Mus musculus with 6 samples.

Results

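Levels of 7 genes of the red blood cell lineage were followed in macrophages sorted from mouse bone marrow before and after engraftment of a human lymphoma line. They are the adult beta-globin genes Hbb-bs and Hbb-bt, the adult alpha-globin genes Hba-a1 and Hba-a2, the haem synthesis gene Alas2, the anion exchanger gene Slc4a1 and the transcription factor gene Klf1. They were taken by symbol from a table of 17528 genes, and all 7 were found there. They were selected on their RPM levels in these same libraries, so those levels are a description and carry no test.

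RNA came from cells sorted from femurs as CD11b+F4/80+. All mice were BALB/c animals of the genotype RAG2-/-γc-/-, in which Rag2 and the shared gamma chain of cytokine receptors are knocked out, so that mature T, B and NK cells are missing. The groups were non-engrafted mice (day 0), mice 4 days after intravenous engraftment of Raji cells (day 4), and mice 18 days after it (day 18). Raji is a human Burkitt lymphoma line that serves as a model of non-Hodgkin lymphoma. Age, sex, the number of animals behind a library and any pooling were not stated in the labels. Each group had 2 libraries, called A and B after the columns of the table. No non-engrafted mice matched the later days, so graft, injection and elapsed time cannot be told apart. Nothing says that a group's libraries are from different animals, so p-values measure only the spread between libraries, which may be technical.

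In red cell precursors, Alas2 makes the first and rate-limiting step of haem synthesis, the alpha and beta chains join with haem to form haemoglobin, and Slc4a1 encodes band 3, which exchanges chloride for bicarbonate across the red cell membrane. Klf1 is a zinc finger factor that binds CACCC boxes in promoters, that of adult beta-globin among them, and switches on many genes of the lineage. In bone marrow, red cell precursors ripen attached to central macrophages, which carry F4/80 and take up the expelled nuclei, in structures called erythroblastic islands.

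In the reference genome the copies of each chain are nearly the same sequence, which bears on every value below. The coding sequences of Hbb-bs and Hbb-bt, of 441 bases each, differed at 1 position (C417T, Hbb-bs base first, counted from the first base of the start codon). Those of Hba-a1 and Hba-a2, of 426 bases each, also differed at 1 position (C381T, Hba-a1 base first). The 40 coding bases around each difference are shown because they hold the only coding letter that separates the copies in the reference. Whether the same holds in BALB/c mice was not tested. They are read from the GENCODE M21 transcripts of GRCm38, 5′ to 3′, with the differing base in capitals.
Hbb-bs: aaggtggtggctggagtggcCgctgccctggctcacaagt
Hbb-bt: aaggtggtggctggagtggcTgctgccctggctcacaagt
Hba-a1: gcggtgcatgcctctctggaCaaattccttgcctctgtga
Hba-a2: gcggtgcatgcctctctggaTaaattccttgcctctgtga

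Of all windows of 50 bases in the main transcript, 65.8% for Hbb-bs and 58.3% for Hbb-bt also occurred in the other beta copy. For the alpha genes the share was 67.5% for Hba-a1 and 86.9% for Hba-a2. No window of Alas2, Slc4a1 or Klf1 occurred in another gene's transcripts. The deposited reads of all 4 globin rows were fractional in all 6 libraries. How reads that match several places were counted was not stated. Slc4a1 and Klf1 had whole reads in all 6 libraries and Alas2 in 1 of 6. In the table the span of Alas2 lies within that of Apex2 on the opposite strand, and without knowing whether the counting used strand, reads of the pair cannot be told apart. BALB/c mice are also known to carry another form of the beta-globin locus than C57BL/6J, the strain of the mm10 genome. What this did to the beta rows, to their split and to their sum was not tested. Because the split between copies is uncertain, sums over copies are given beside each row.

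By the same GENCODE release on mm10, Hbb-bs lies on chromosome 7 from 103826534 to 103828096 and Hbb-bt from 103812524 to 103813996, both on the minus strand. Hba-a1 lies on chromosome 11 from 32283511 to 32284465 and Hba-a2 from 32296489 to 32297298, both on the plus strand. Slc4a1 lies on chromosome 11 from 102348824 to 102366203 on the minus strand, Alas2 on chromosome X from 150547375 to 150570638 and Klf1 on chromosome 8 from 84901928 to 84905291, the last pair on the plus strand. All are protein-coding.

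The stretch of 120 bases just before the RefSeq start (GRCm38.p6) is shown for 5 members, because the chain genes stood in the same order of days and Klf1 is known for binding the beta-globin promoter. RefSeq promoters were found for 6 of the 7 members. All 5 windows shown overlap the GENCODE gene span given above, those of Hbb-bs and Hba-a1 in full. The RefSeq and GENCODE starts of these genes thus lie at different bases. Capitals mark 4 motifs searched on both strands: CACCC with its reverse complement GGGTG, then CCAAT with its reverse complement ATTGG, then GATAA with its reverse complement TTATC, and lastly TATAA with its reverse complement TTATA. Overlapping or adjoining matches run together, as in Hbb-bt and Alas2.
Hbb-bs, chr7:103827929-103828048, minus strand: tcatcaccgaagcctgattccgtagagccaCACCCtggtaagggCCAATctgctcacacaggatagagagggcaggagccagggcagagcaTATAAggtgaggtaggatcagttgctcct
Hbb-bt, chr7:103813924-103814043, minus strand: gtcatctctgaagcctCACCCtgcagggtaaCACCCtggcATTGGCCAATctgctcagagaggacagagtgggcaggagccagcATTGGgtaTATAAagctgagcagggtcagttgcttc
Hba-a1, chr11:32283552-32283671, plus strand: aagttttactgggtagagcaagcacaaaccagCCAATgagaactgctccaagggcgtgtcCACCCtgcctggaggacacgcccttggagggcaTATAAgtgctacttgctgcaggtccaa
Alas2, chrX:150547297-150547416, plus strand: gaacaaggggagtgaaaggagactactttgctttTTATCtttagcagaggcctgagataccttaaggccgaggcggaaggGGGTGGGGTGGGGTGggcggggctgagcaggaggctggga
Klf1, chr8:84901862-84901981, plus strand: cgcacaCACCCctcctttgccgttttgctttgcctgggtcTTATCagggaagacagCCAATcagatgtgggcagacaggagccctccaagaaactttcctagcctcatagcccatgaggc

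The Hba-a2 promoter matched that of Hba-a1 at all 297 bases compared, shifted by 3 bases. CACCC occurred in all 6 windows, against 31.7% of 32851 mouse promoter windows of this length. It occurred 1 time in Hbb-bs and 2 times in Hbb-bt. CCAAT occurred in all of the 6 but Alas2, against 21.3% of promoters. TATAA occurred in the 4 globin windows and in neither Alas2 nor Klf1, against 11.8% of promoters. GATAA, the core letters that GATA factors bind, occurred in Alas2 and Klf1 only, against 10.5% of promoters. Such matches describe letters and do not show binding.

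Libraries held 20100000 to 23200000 assigned reads (rounded). Levels are in RPM, the deposited RPKM times the gene span in kilobases, which is a gene's share of the assigned reads on the RPKM scale without the division by length. The sort genes were present: Itgam (CD11b) averaged 2240 ± 12.1, 2050 ± 3.93 and 1980 ± 19.5 RPM and Adgre1 (F4/80) averaged 33.5 ± 1.01, 43.8 ± 2.39 and 63.2 ± 0.667 RPM at day 0, day 4 and day 18 (SD, n = 2 each). Neutrophil transcripts were far more abundant. The 14 neutrophil genes listed summed to 141000 RPM in both day 0 libraries, to between 128000 and 131000 RPM at day 4 and to between 112000 and 113000 RPM at day 18. Within each group the pair of libraries differed beyond counting error (chi-square averaged over genes 3.27 for day 0, 4.45 for day 4, 2.46 for day 18).

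Haemoglobin transcripts stood lower at day 4 than at day 0 and were highest at day 18. The 4 globin rows together made up 236 and 250 RPM in day 0 libraries, 139 and 135 RPM in day 4 libraries, and 371 and 381 RPM in day 18 libraries. The log2 difference of the sum after scaling was -0.88 for day 4 against day 0, 0.54 for day 18 against day 0 and 1.43 for day 18 against day 4, with pooled SDs of 0.045, 0.05 and 0.03. The 3 groups did not overlap, with both day 4 libraries below and both day 18 libraries above every day 0 library. How many of all tested genes stood in this order was not counted. As a share of all assigned reads the sum lay between 0.0135% and 0.0381%, while globin RNA is known to dominate late red cell precursors. These are sorted cells measured in bulk, so fewer cells of a type and less RNA per cell cannot be told apart.

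**Figure D1:**
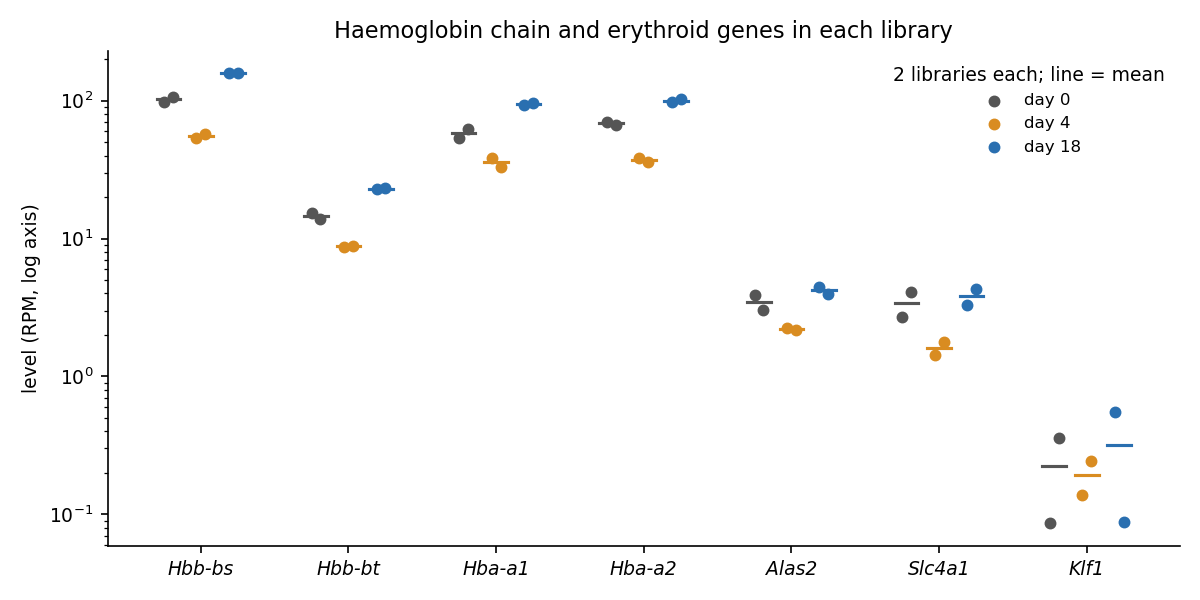
Level of each of the 7 genes in each library (RPM, log axis), with 2 points per day in the order day 0, day 4 and day 18 and a line at their mean. The globin rows sit at 8.74 to 158 RPM with day 4 lowest and day 18 highest, Alas2 and Slc4a1 at 1.42 to 4.48 RPM, and Klf1 below 1 RPM with groups that overlap.

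Hbb-bs, the beta chain row with the most reads, stood at 97.6 and 107 RPM at day 0, 53.6 and 57.2 RPM at day 4, and 158 RPM in both day 18 libraries. The day 4 libraries were the lowest and the day 18 libraries the highest, with no overlap. After scaling of the libraries, the log2 difference was -0.94 ± 0.0532 (standard error) for day 4 against day 0, 0.54 ± 0.0532 for day 18 against day 0 and 1.48 ± 0.0532 for day 18 against day 4.

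Hbb-bt, the other adult beta gene, stood at 15.2 and 13.8 RPM at day 0, 8.74 and 8.79 RPM at day 4, and 22.7 and 23.1 RPM at day 18. Its groups also stood apart in the order day 4, day 0, day 18. The log2 differences were -0.77 ± 0.118, 0.57 ± 0.118 and 1.34 ± 0.118 in the same 3 comparisons.

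Hba-a1, an adult alpha gene, stood at 53.2 and 62.7 RPM at day 0, 38.1 and 33.1 RPM at day 4, and 93.3 and 96.3 RPM at day 18. Hba-a2, its copy with the base difference shown above, stood at 70.2 and 66.4 RPM at day 0, 38.3 and 35.9 RPM at day 4, and 97.1 and 103 RPM at day 18. For both, the day 4 libraries were the lowest and the day 18 libraries the highest. For day 4 against day 0 the log2 difference was -0.75 ± 0.0767 for Hba-a1 and -0.93 ± 0.061 for Hba-a2. For day 18 against day 0 it was 0.63 ± 0.0767 for Hba-a1 and 0.47 ± 0.061 for Hba-a2. For day 18 against day 4 it was 1.39 ± 0.0767 for Hba-a1 and 1.40 ± 0.061 for Hba-a2.

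The proportion of alpha to beta reads varied less than their sum. The alpha sum was 123 and 129 RPM at day 0, 76.4 and 69.0 RPM at day 4, and 190 and 200 RPM at day 18. The beta sum was 113 and 121 RPM at day 0, 62.3 and 66.0 RPM at day 4, and 180 and 181 RPM at day 18. The ratio of alpha to beta reads lay between 1.04 and 1.23 over all 6 libraries, with both of those extremes in the day 4 libraries. Hbb-bt took 11.4% to 14.0% of the beta reads and Hba-a1 43.1% to 49.8% of the alpha reads, and in both shares the lowest value was a day 0 library. Because the copies share most of their sequence, both shares also depend on how reads were given to the copies. What the beta-globin locus of the strain did to the ratio of alpha to beta reads was not tested.

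**Figure D2:**
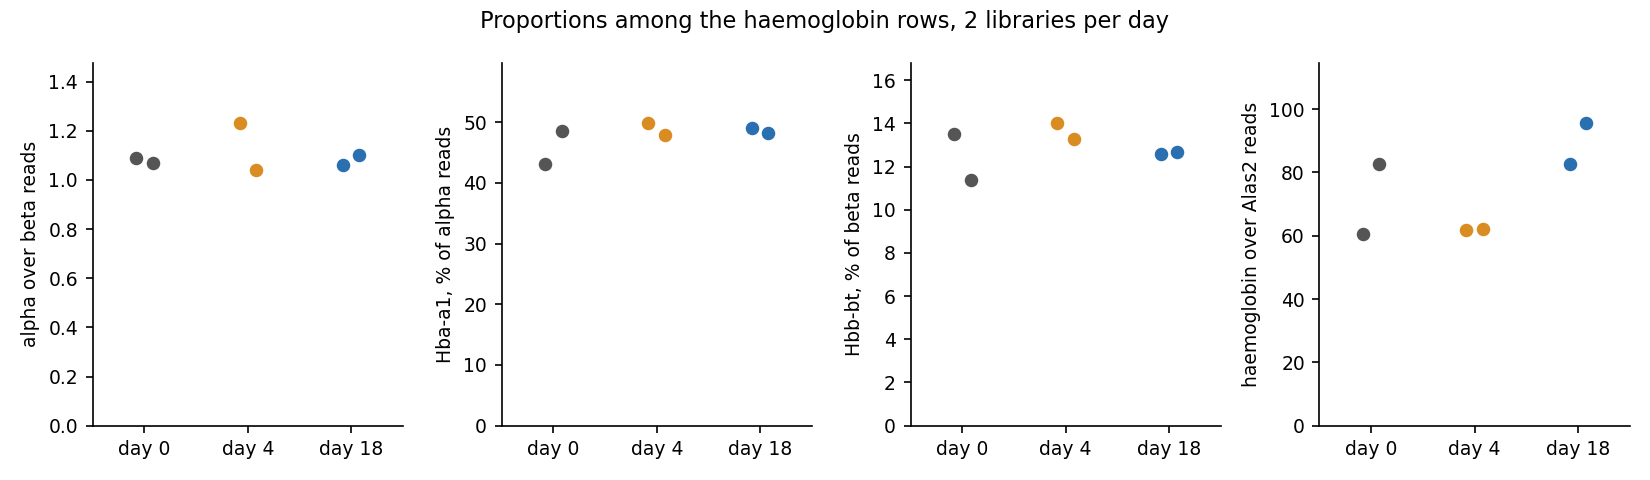
Ratio of alpha to beta reads, Hba-a1 as a percent of alpha reads, Hbb-bt as a percent of beta reads and the ratio of the haemoglobin sum to Alas2, with 2 libraries per day and axes from 0. The chain proportions stay within 1.04 to 1.23, 43.1% to 49.8% and 11.4% to 14.0%, while the ratio to Alas2 spans 60.7 to 95.5.

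Alas2 stood at 3.89 and 3.02 RPM at day 0, 2.25 and 2.18 RPM at day 4, and 4.48 and 3.99 RPM at day 18, from 44 to 90 reads per library. Both day 4 libraries lay below all others. Both day 18 libraries lay above those of day 0 in RPM, but the day 18 and day 0 libraries overlapped after scaling. The log2 difference was -0.66 ± 0.252 for day 4 against day 0, 0.21 ± 0.252 for day 18 against day 0 and 0.87 ± 0.252 for day 18 against day 4. The day 18 against day 0 value ranged from 0.03 without day 0 B to 0.39 without day 0 A. The overlapping opposite-strand gene Apex2 stood at 9.99 to 12.5 RPM and passed the test in none of the comparisons (limma, adjusted p = 0.845, 0.935 and 0.872, in the order used above).

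Slc4a1 stood at 2.71 and 4.11 RPM at day 0, 1.42 and 1.77 RPM at day 4, and 3.29 and 4.34 RPM at day 18, from 31 to 98 whole reads per library. The day 4 libraries lay below all others, and those of day 18 and day 0 overlapped. The log2 difference was -1.08 ± 0.286 for day 4 against day 0 and 1.17 ± 0.286 for day 18 against day 4. For day 18 against day 0 it was 0.09 ± 0.286, and it turned to -0.20 without day 0 A and to -0.11 without day 18 B, against 0.38 without day 0 B.

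Klf1 was at the edge of detection. Its reads numbered 2 and 8 in the day 0 libraries, 3 and 5 in those of day 4, and 11 and 2 in those of day 18. The exact Poisson 95% interval of the highest count, 11 reads in day 18 A, ran from 5.49 to 19.7, and that of the lowest, 2 reads in day 0 A and day 18 B, from 0.242 to 7.22. Intervals cover counting error only. The groups overlapped, and Klf1 did not reach the minimum of 0.453 RPM in 2 libraries that was asked of tested genes. A difference between groups was not detectable at this depth.

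Levels of different genes were compared per kilobase of exons. Day 0 means were 133 RPM per exonic kilobase for Hbb-bs, 102 for Hba-a2, 71.3 for Hba-a1 and 20.6 for Hbb-bt, against 1.44 for Alas2, 0.697 for Slc4a1 and 0.145 for Klf1. The order was the same at day 4, where Hbb-bs had 72.1 and Klf1 0.125, and at day 18, where Hbb-bs had 206 and Klf1 0.208. No neighbours in this order overlapped within a day. By ratio the closest were Hba-a2, at 57.4 and 53.8, and Hba-a1, at 46.9 and 40.8 RPM per exonic kilobase in the day 4 libraries. In RPM, not divided by length, these libraries overlapped, at 38.3 and 35.9 for Hba-a2 and 38.1 and 33.1 for Hba-a1. The order of these copies thus depends on their exonic lengths, 667 and 812 bases. It also depends on how shared reads were given to the copies. Whether reads in introns entered the deposited values is not stated. The ratio of haemoglobin to Slc4a1 reads, not divided by length, ranged from 60.8 to 113 over the libraries, with overlap among the days.

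Of the 7 members, 6 were tested in the fit across 14304 genes. A gene was called where limma's Benjamini-Hochberg adjusted p was under 0.05. At day 4 against day 0, 5 of the 6 were called lower, as were 6.62% of all genes, and 0 higher, as were 5.44% of all genes. After scaling, the libraries of all 6 stood apart with day 4 lower, as did those of 25.4% of all genes, while 25.5% of all genes stood apart with day 4 higher. At day 18 against day 0, 4 were called higher and stood apart, where 18.0% of all genes were called higher and 34.8% stood apart that way; 17.1% were called lower and 31.6% stood apart lower. At day 18 against day 4, all 6 were called higher and stood apart, where 14.0% of all genes were called higher and 30.1% stood apart that way; 11.9% were called lower and 28.7% stood apart lower. These counts restate the values that led to the choice of the genes, and nothing is read from them. The comparisons share libraries, so they are not independent of each other.

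Other genes of the lineage went in both directions. Of 77 further genes in lists of the lineage, 68 were analysed and 54 of these were tested. At day 4 against day 0, 5 rose and 2 fell, which is 13.0% of them against 12.1% of all genes. At day 18 against day 0, 12 rose and 6 fell (33.3% against 35.2% of all genes), and at day 18 against day 4, 10 rose and 7 fell (31.5% against 25.9%). Their median log2 difference was 0.019, 0.11 and 0.10 in these comparisons, beside 0.0043, 0.016 and 0.0078 for all tested genes. With 1 prior spread for all expression levels, limma called 0 of all genes at day 4 (2454 at an unadjusted p under 0.05) and 0 of these lineage genes (13 at an unadjusted p under 0.05), so every day 4 call against day 0 named below rests on a spread that follows the expression level. With 1 prior spread, the day 18 against day 0 calls of Epb41, Nfe2, Slc11a2, Tent5c, Bnip3l and Myb also ended (limma adjusted p = 0.0511 to 0.17). So did the day 18 against day 4 calls of Alas1, Ppox, Tmem14c, Cbfa2t3, E2f2, Lmo2 and Tent5c (0.0522 to 0.103). With library totals in place of scaling factors the split was 9 risers and 1 faller at day 4, 15 and 3 at day 18 against day 0, and 10 and 6 at day 18 against day 4.

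**Figure D3:**
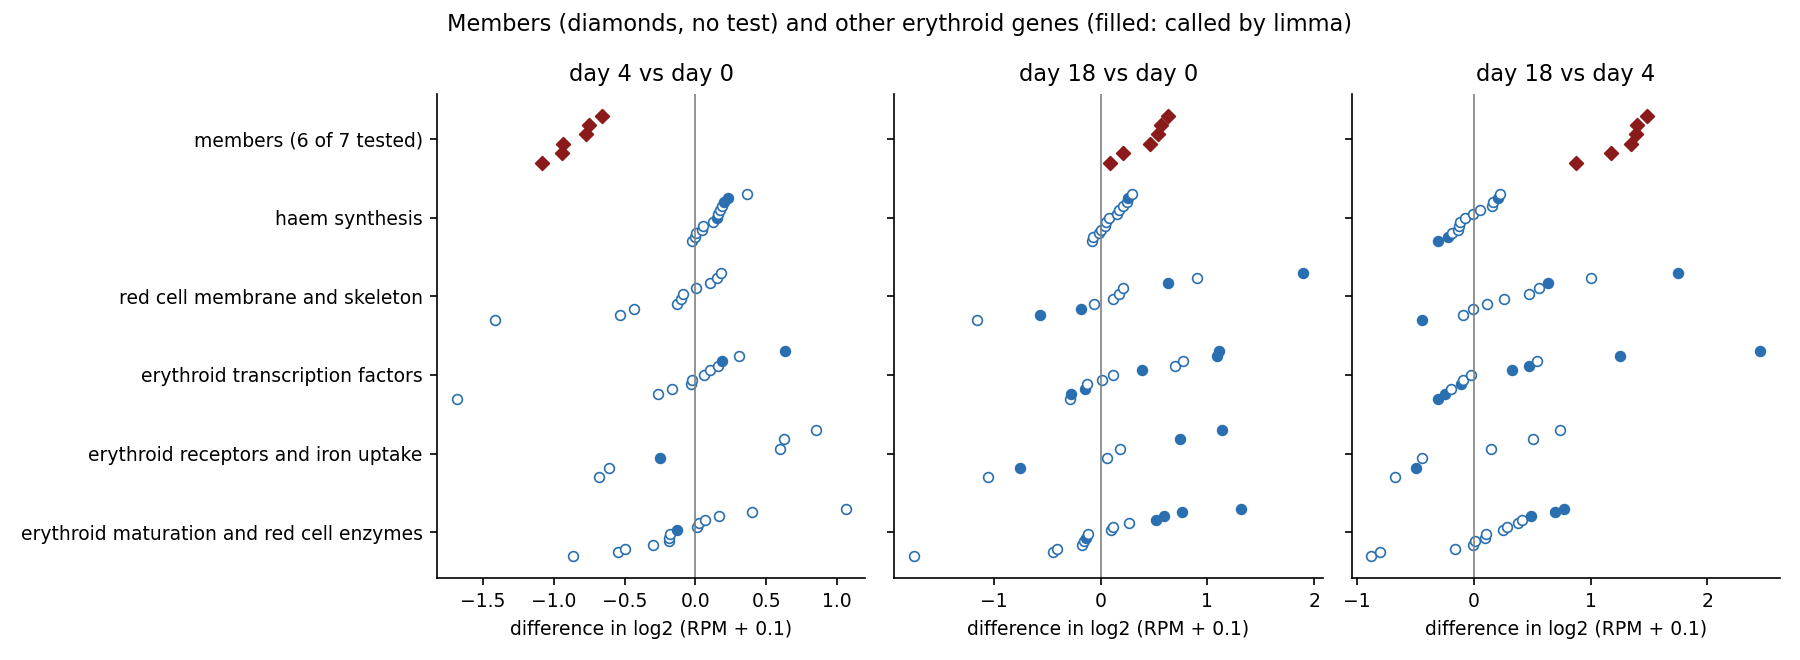
Log2 differences of the 6 tested members (diamonds, given without a test) and of 54 other genes of 5 lineage lists (circles, filled where called by limma) for day 4 against day 0, day 18 against day 0 and day 18 against day 4. The members were chosen with these values in view and include copies that share reads, so nothing is read from their agreement. They lie on 1 side of 0 in each panel, with Slc4a1 at 0.09 ± 0.286 for day 18 against day 0. Genes of the other lists lie on both sides.

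Most haem synthesis genes other than Alas2 were not called. Of 13 tested, 3 rose and 0 fell at day 4 against day 0 (4 at an unadjusted p under 0.05). This is 23.1% called, against 12.1% of all genes. At day 18 against day 0 it was 7.69%, against 35.2% of all genes. Alas1, the form of the first enzyme found in all tissues, rose at day 4, to 291 ± 9.05 RPM against 239 ± 8.46 RPM at day 0 (SD, n = 2, log2 0.23 ± 0.0363, limma adjusted p = 5.95e-05). At day 18 it fell to 241 ± 9.40 RPM, against 291 ± 9.05 RPM at day 4 (log2 -0.30 ± 0.0363, limma adjusted p = 2.26e-07, but 0.0635 with 1 prior spread). Ppox, which makes the last precursor before iron is inserted, also rose at day 4 (log2 0.20), though not without day 0 B (limma adjusted p = 0.155) or day 4 A (0.0778). Fech, the enzyme that inserts the iron, had a limma adjusted p of 0.99 at day 4. At day 18 against day 0 the riser of this list was Tmem14c, a mitochondrial carrier needed for haem synthesis, at 76.4 ± 0.60 RPM against 60.4 ± 0.974 RPM (log2 0.25 ± 0.0568).

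Many genes of the red cell membrane and skeleton were barely detected. Of 20 other than Slc4a1, 10 had too few reads to be tested. Among them were Epb42, a protein that ties band 3 to the skeleton, with 3 to 13 reads per library, Rhag with 0 to 13, and Rhd, Kel, Icam4, Cldn13, Add2, Dmtn and Tmod1. At day 4 against day 0, 0 of the 10 tested were called by limma (2 at an unadjusted p under 0.05), beside 12.1% of all genes. Of the same 10 genes, 2 rose and 2 fell at day 18 against day 0 (40% called, against 35.2% of all genes). Tspan33, a tetraspanin also known from activated B cells, was at 6.42 ± 0.638 RPM at day 18 against 1.56 ± 0.114 RPM at day 0 (log2 1.90 ± 0.281, limma adjusted p = 4.63e-06). Gypc, glycophorin C, rose to 9.55 ± 0.369 RPM at day 18 against 5.77 ± 0.00283 RPM at day 0, though not without day 18 A (limma adjusted p = 0.051). Xk, a membrane protein that partners Kell, fell to 29.9 ± 1.21 RPM at day 18 against 41.9 ± 0.136 RPM at day 0. Epb41, protein 4.1 of the skeleton, also fell (log2 -0.18), but not with library totals alone (limma adjusted p = 0.0979).

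Among the transcription factors of the lineage, 11 other than Klf1 were tested and Sox6 had too few reads. At day 4 against day 0, 2 rose and 0 fell (5 at an unadjusted p under 0.05). This is 18.2% called, against 12.1% of all genes. At day 18 against day 0 it was 45.5%, against 35.2% of all genes. Cbfa2t3, a corepressor that binds Tal1 complexes, was at 9.59 ± 0.0339 RPM at day 0, 15.5 ± 1.45 RPM at day 4 and 22.1 ± 2.35 RPM at day 18. It rose at day 4 (log2 0.63 ± 0.122) and at day 18 against day 0 (1.11 ± 0.122). Lmo2, a bridge between Tal1 and Gata1, rose at day 4 (log2 0.18), but not without day 0 A (limma adjusted p = 0.191) or day 4 B (0.225).

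Klf3, a repressor that Klf1 is known to activate, rose at day 18 against day 0 (133 ± 1.22 RPM against 95.5 ± 3.58 RPM, log2 0.39 ± 0.0462). E2f2, a cell cycle factor, fell at day 18 (log2 -0.28 ± 0.033 against day 0). Nfe2, a subunit of a factor that acts on globin genes, fell too (-0.14), a call that did not hold with library totals alone (limma adjusted p = 0.202). Lmo2 fell at day 18 against day 4 (-0.31 ± 0.0515), though not with 1 prior spread (limma adjusted p = 0.0741).

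Gata1, which is not among the 2 called genes with the smallest p, and Gfi1b, which lies below the level set for naming genes, were chosen after their values were seen. Gata1, the master factor of the lineage that eosinophils and mast cells use too, stood at 1.46 and 0.715 RPM at day 0, 1.01 and 0.883 RPM at day 4, and 2.69 and 2.21 RPM at day 18. It passed the test at day 18 against day 0 (log2 1.09, limma adjusted p = 0.0299) and against day 4 (1.25, 0.0168). Gfi1b, a repressor of red cell and platelet precursors, stood at 0.345 and 0.85 RPM at day 0, 0.0458 and 0.196 RPM at day 4, and 0.947 and 1.19 RPM at day 18, in the same order of days as the globins. Its difference passed for day 18 against day 4 (log2 2.45, limma adjusted p = 0.00355) and missed for day 4 against day 0 (-1.69, 0.0803). Both day 4 values of Gfi1b lie under 0.453 RPM, so its differences rest on very few reads. Some other low genes of the lineage lists, also chosen after their values were seen, were highest at day 0. Means at day 0, day 4 and day 18 were 0.701, 0.455 and 0.321 RPM for Epor and 0.591, 0.339 and 0.177 RPM for Car1. For Aqp1 they were 1.21, 0.444 and 0.52 RPM. Others had the globins' order of days by mean. Their means were 0.764, 0.545 and 0.866 RPM for Ermap and 0.589, 0.342 and 0.654 RPM for Erfe. For Ank1 they were 0.374, 0.353 and 0.819 RPM. In each of Ermap, Erfe and Ank1 some libraries of different days overlapped. Limma called none of Epor, Car1, Aqp1, Ermap, Erfe and Ank1.

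Iron uptake genes went in different directions. Tfrc, the transferrin receptor that precursors carry in large numbers and that dividing cells of other kinds use too, stood at 110 ± 2.99 RPM at day 0, 95.6 ± 1.65 RPM at day 4 and 69.1 ± 0.788 RPM at day 18. It fell at day 4 against day 0 (log2 -0.25 ± 0.0495), at day 18 against day 0 (-0.75 ± 0.0495) and at day 18 against day 4 (-0.50 ± 0.0495). Slc11a2, the iron transporter DMT1, rose at day 18 against day 0 (6.62 ± 0.34 RPM against 2.84 ± 0.789 RPM), though not with 1 prior spread (limma adjusted p = 0.0511). Steap3, an iron reductase, rose too (5.9 ± 0.169 RPM against 3.29 ± 0.149 RPM), though not without day 18 B (limma adjusted p = 0.0562). Of the 6 tested in this list, 0 rose and 1 fell at day 4, and 2 rose and 1 fell at day 18, both against day 0. This is 16.7% and 50% called, against 12.1% and 35.2% of all genes.

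Among 14 tested genes of red cell maturation and red cell enzymes, 0 rose and 1 fell at day 4 against day 0. At day 18 against day 0, 4 rose and 1 fell. This is 7.14% and 35.7% called, against 12.1% and 35.2% of all genes. Prdx2, a peroxidase abundant in red cells, was at 18.7 ± 1.10 RPM at day 18 against 10.4 ± 0.564 RPM at day 0 (log2 0.76 ± 0.13, limma adjusted p = 3.31e-05). Tent5c, a poly(A) polymerase, rose at day 18 against day 0 (11.8 ± 1.39 RPM against 7.36 ± 0.722 RPM), though not without day 0 A (limma adjusted p = 0.0753) or day 18 B (0.121). Bnip3l, which clears mitochondria from reticulocytes, was the faller in both comparisons (log2 -0.13 in each). Its day 4 call ended without any 1 of the 4 libraries compared (limma adjusted p = 0.0548 to 0.255). Its day 18 call ended without day 0 A (0.113) or day 18 A (0.121), and with library totals neither held (0.225 and 0.353). Trim58, Trim10 and Slc38a5 had too few reads. Reads of Ppox, Nfe2, Klf3, Cbfa2t3, Prdx2 and Bnip3l were in part fractional.

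At day 18 against day 4 the lineage lists again held risers and fallers. In haem synthesis 1 rose and 2 fell, in membrane and skeleton 2 rose and 1 fell, and among transcription factors 4 rose and 3 fell. In receptors and iron uptake 0 rose and 1 fell, and in maturation 3 rose and 0 fell. In the order given, 23.1%, 30%, 63.6%, 16.7% and 21.4% of the tested genes were called, against 25.9% of all genes. Tspan33 (log2 1.74 ± 0.281), Klf3 (0.33 ± 0.0462), Prdx2 (0.69 ± 0.13) and Tent5c (0.77 ± 0.165) rose, and Xk (-0.44 ± 0.0752) and E2f2 (-0.25 ± 0.033) fell. The calls of Tent5c (limma adjusted p = 0.0699) and E2f2 (0.0522) ended with 1 prior spread. Some other calls ended without a single library. The rise of Gypc ended without day 18 A (limma adjusted p = 0.0671). The rise of Tmem14c ended without day 4 B (0.0544) or day 18 A (0.0541). The rise of Cbfa2t3 ended without day 4 B (0.0553) or day 18 B (0.127), and the fall of Ppox ended without day 18 B (0.0509).

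The 14 lineage genes that had too few reads to be tested, Klf1 not counted, were also summed. They came to 57 and 63 reads at day 0 (2.45 and 2.80 RPM), 57 and 52 at day 4 (2.61 and 2.54 RPM), and 67 and 84 at day 18 (3.32 and 3.72 RPM). The day 18 libraries were the highest, and those of day 4 and day 0 overlapped in RPM. Embryonic and theta-like globins (Hbb-y, Hbb-bh0, Hbb-bh1, Hbb-bh2, Hbb-bh3, Hba-x, Hbq1a and Hbq1b) and the alpha chain chaperone Ahsp were not analysed here.

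Macrophage genes of the erythroblastic island and of haem and iron recycling were examined beside the members. Of 16 tested, 1 rose and 6 fell at day 4 against day 0 (43.8% called, against 12.1% of all genes), and 8 rose and 6 fell at day 18 against day 0 (87.5% against 35.2%). Cd5l, a secreted scavenger protein of tissue macrophages, stood at 23.4 and 21.1 RPM at day 0, 12.5 and 11.4 RPM at day 4, and 35.3 and 30.7 RPM at day 18. Like the globins it was lowest at day 4 and highest at day 18 with no overlap. Hmox1, which breaks haem down, fell at day 4 to 85.7 ± 1.99 RPM against 117 ± 5.03 RPM at day 0, and stood at 107 ± 3.06 RPM at day 18. Slc40a1, the iron exporter ferroportin, fell at day 18 (269 ± 2.28 RPM against 323 ± 1.97 RPM at day 0), while the ferritin heavy chain gene Fth1 rose (827 ± 24.9 RPM against 476 ± 7.15 RPM). Reads of both were in part fractional. The 16 genes summed to between 2360 and 2410 RPM at day 0, to 2290 RPM at day 4 and to between 3020 and 3100 RPM at day 18. The ferritin genes Fth1 and Ftl1 weigh most in this sum. Ftl1 stood at 793 ± 33.5 RPM at day 0 and 1100 ± 38.8 RPM at day 18. Its reads were in part fractional too. The 6 fallers at day 18 against day 0 were Siglec1 (log2 -0.57 ± 0.109), Cd163 (-0.58 ± 0.167), Axl, Maea, Hmox1 and Slc40a1. The 8 risers were Vcam1, Spic, Cd5l, Fth1, Ftl1, Trf, Mertk and Dnase2a. The part of these 16 genes in the globin levels was not tested.

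Markers of other cells in the marrow moved as well. Of the eosinophil, basophil and mast cell list, 5 of 15 rose and 4 fell at day 4 against day 0, and 7 rose and 2 fell at day 18 against day 0. This is 60% called in each comparison, against 12.1% and 35.2% of all genes. Ear1, an eosinophil-associated ribonuclease, stood at 44.9 and 41.5 RPM at day 0, 22 and 27.4 RPM at day 4, and 92.6 and 90.7 RPM at day 18. Ear6, its relative, stood at 44.2 and 48.8 RPM at day 0, 30.8 and 28.0 RPM at day 4, and 84.9 and 90.0 RPM at day 18. The Ear genes are close copies of each other and the reads of Ear1 were in part fractional, so the split among them is uncertain. Both had the globins' order of days, while Prg2, the eosinophil major basic protein, stood at 148 ± 1.31 RPM at day 0, 154 ± 11.9 RPM at day 4 and 283 ± 0.313 RPM at day 18. Other genes of this list, chosen after their values were seen, had another order of days. The basophil protease gene Mcpt8 stood at 4.74 and 3.53 RPM at day 0, 11 and 10.3 RPM at day 4, and 2.64 and 2.61 RPM at day 18. Prss34, another basophil protease gene, had log2 differences of 1.51 ± 0.184 for day 4 against day 0 and -2.48 ± 0.184 for day 18 against day 4. The mast cell and basophil genes Cpa3 (1.37 ± 0.294 and -1.82 ± 0.294) and Gata2 (1.61 ± 0.436 and -2.04 ± 0.436) also rose and then fell in these comparisons. Epx, the eosinophil peroxidase gene, rose at day 4 against day 0 (0.55 ± 0.0758) and did not pass the test at day 18 against day 4 (limma adjusted p = 0.701). The 15 genes summed to between 409 and 415 RPM at day 0, between 382 and 408 at day 4 and between 680 and 686 at day 18.

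Platelets and megakaryocytes share a precursor with red cells. Their 12 marker genes analysed summed to between 13.1 and 14.3 RPM at day 0, between 14.7 and 15.9 at day 4 and between 14.3 and 14.4 at day 18, with Gp6 at 0 in both day 0 libraries. Of 7 tested, 0 rose and 1 fell at day 4 against day 0 (14.3% called, against 12.1% of all genes). The faller was Pf4, platelet factor 4, at 1.10 and 1.08 RPM at day 4 against 2.71 and 2.41 RPM at day 0, a call that ended without any 1 of those 4 libraries (limma adjusted p = 0.0646 to 0.156). At day 18, 0 of 7 were called by limma against day 0 and 0 against day 4 (0 at an unadjusted p under 0.05 in both).
Progenitor markers summed to between 346 and 356 RPM at day 0, between 441 and 463 at day 4 and between 397 and 404 at day 18. Of 8 tested, 3 rose and 0 fell at day 4 against day 0 (37.5% called, against 12.1% of all genes), with Gfi1, a repressor of the myeloid and stem cell stages, at log2 0.38 and Cebpa, a myeloid factor, at 0.46. Cebpa also rose at day 18 against day 0 (0.75 ± 0.0578). By mean RPM, Myb, Gfi1, Flt3 and Sox4 were highest at day 4, and Cebpa, Kit, Cd34 and Meis1 at day 18. The day 4 and day 18 libraries of Kit and Cd34 overlapped. Myb, a factor of dividing progenitors, fell at day 18 against day 4 (log2 -0.39 ± 0.041). Its fall against day 0 (-0.14) did not hold without day 0 B (limma adjusted p = 0.12), without day 18 A (0.131) or with library totals (0.344).
Neutrophil markers had 4 risers and 8 fallers of 14 at day 4 and 5 risers and 7 fallers at day 18, both against day 0 (85.7% called in each, against 12.1% and 35.2% of all genes). The primary granule genes Mpo (log2 0.73 ± 0.0176) and Elane (0.67 ± 0.0237) rose at day 4, and the secondary granule gene Ltf fell at day 18 (-0.47 ± 0.00796). For day 18 against day 4, 9 of the macrophage list rose and 2 fell, 8 of the eosinophil, basophil and mast cell list rose and 5 fell, 1 progenitor gene rose and 3 fell, and 4 neutrophil genes rose and 8 fell. In the same order, 68.8%, 86.7%, 50% and 85.7% of the tested genes were called, against 25.9% of all genes. The part of any of these cells in the globin levels was not tested.

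The genes beside the globin clusters were looked up after the data were seen. Within 100 kb of a globin member, 6 other genes were tested. At day 4 against day 0, 0 were called by limma (adjusted p = 0.0605 to 0.967, and 1 at an unadjusted p under 0.05). Nprl3, whose introns are known to hold the alpha-globin enhancers, stood at 5.29 and 7.63 RPM at day 0, 8.14 and 7.18 RPM at day 4, and 8.41 and 8.24 RPM at day 18, with limma adjusted p = 0.532 at day 4 and 0.211 at day 18. Sh3pxd2b, near the alpha cluster, was the 1 gene called at day 18 against day 0, at 11.5 and 12.8 RPM against 3.02 and 2.5 RPM. In the day 4 libraries it stood at 4.4 and 4.17 RPM, above both day 0 libraries.

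Genes whose levels were most like the haemoglobin sum over the 6 libraries were sought among 3638 tested genes with enough reads and range. The 8 with the highest Pearson r, from 0.983 to 0.992, were Ear2, Hcar2, Cyp4f18, Adam19, Alox15, Olfm4, Cd5l and Dst. Among the members themselves, r with the sum was 0.932 for Alas2 and 0.89 for Slc4a1, over the same 6 libraries. These values describe 3 days with 2 libraries each, share the libraries' depth, and carry no p. Alox15, a lipoxygenase, stood at 46.9 and 47.2 RPM at day 0, 24.9 and 27.3 RPM at day 4, and 95.2 and 93.5 RPM at day 18. Hcar2, a receptor for hydroxycarboxylic acids, stood at 19.2 and 22.3 RPM at day 0, 9.40 and 10.9 RPM at day 4, and 41.6 and 40.2 RPM at day 18. Olfm4, a granule protein of a subset of neutrophils, stood at 1330 and 1310 RPM at day 0, 987 and 946 RPM at day 4, and 1560 and 1570 RPM at day 18. In all 3 the day 4 libraries were lowest and the day 18 libraries highest, an order that comes with their choice by r.

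**Figure D4:**
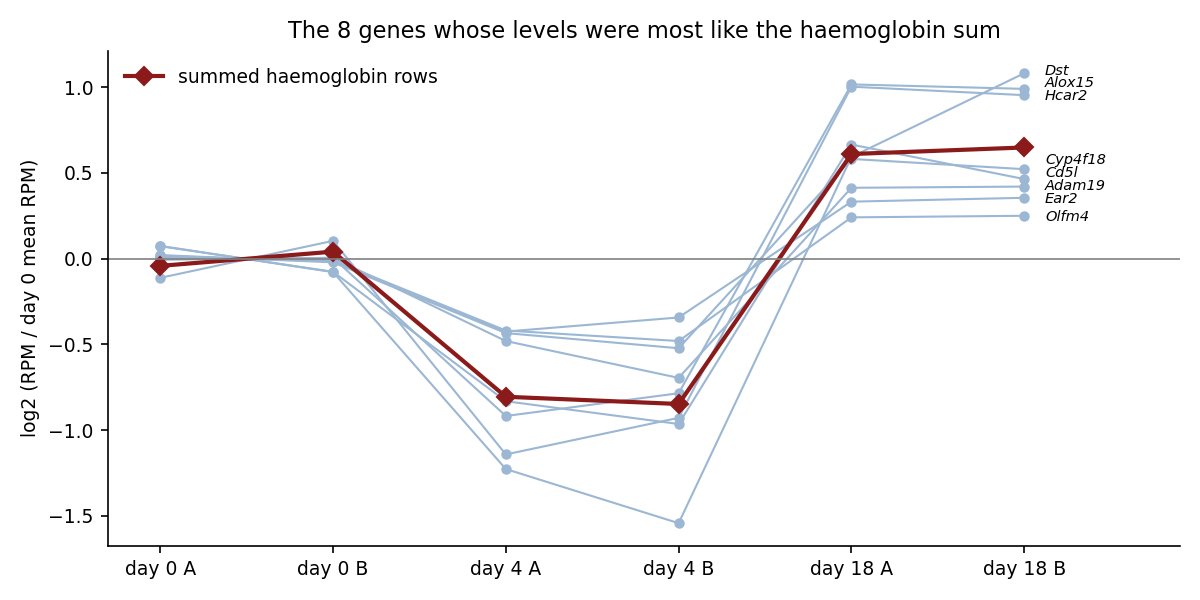
Log2 of RPM over the day 0 mean for the summed haemoglobin rows (diamonds) and the 8 genes with the highest Pearson r to them (circles), library by library. All 9 lines lie below 0 in both day 4 libraries and above 0 in both day 18 libraries. The 8 genes were chosen for following the sum, so their shared order of days comes with the choice.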

How the data were processed

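STAR 2.5.3a and mm10 are named in the submitters' processing notes. The authors deposited 1 table of 17528 genes and 6 libraries. The name of the table speaks of raw counts, but the values are RPKM over the whole gene span, introns included, as the deposited values show: after multiplication by the span in kilobases, the values of each library sum to the full RPM total. The counting tool is not given in the sources used here. Steps between low values gave the worth of 1 read and so the depth, 20100000 to 23200000 reads, and 75.2% to 76.9% of values were whole reads within 0.05.

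RPM was scaled by trimmed mean of M values (trims 0.3 and 0.05, factors 0.968 to 1.03). Genes with 10 reads at the median depth (0.453 RPM) in 2 libraries and 15 reads in all were tested (14304). Log2 of RPM plus 0.1 was fitted in limma 3.58.1 (R 4.3.3) for all 3 groups at once, using robust moderation and a prior spread allowed to vary with expression. The fit was tested on simulated data. There, for day 4 against day 0 and 13971 genes, 92% of genes changed by 1.5-fold and 100% of those changed by 2-fold were recovered. Of the genes called there, 4.5% had not been changed. The changed genes were all raised and were drawn only from genes with more reads than the test asked for. The simulated spread was fixed and not estimated from these data. These shares therefore do not carry over to genes with few reads. The pseudocount shrinks the fold changes of low genes. Levels are unscaled RPM, and differences are after scaling.

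The members and lists were chosen with earlier results of these data known. Named were all members, per lineage list and comparison the 2 called genes with the smallest p in each direction (mean log2 RPM of at least 0), the 2 such genes per other list, and the 8 genes most like the haemoglobin sum (mean log2 RPM of at least 1 and range of at least 0.5). Shared windows of 50 bases and coding differences came from GENCODE M21, promoters from RefSeq GRCm38.p6 (250 bases before and 50 after the start). Sequences were handled in pandas 2.3.3 under Python 3.11.15. Alternatives were another pseudocount, library totals, no filter, 1 prior spread for all levels, only the libraries compared, each library left out, and a block by column letter.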

Additional observations from a re-analysis of the deposited data

Results flagged for a closer look

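The globin rows stood on opposite sides of day 0 in the engrafted groups: both day 4 libraries lay below and both day 18 libraries above each day 0 library. Of all tested genes, 25.4% stood apart lower at day 4 and 34.8% stood apart higher at day 18, both against day 0. How many did both was not counted. The copies share reads, so the 4 globin rows are not separate instances. The log2 difference of day 18 from day 4 was 1.48 for Hbb-bs, 1.34 for Hbb-bt, 1.39 for Hba-a1, 1.40 for Hba-a2 and 1.43 for their sum. The difference was not tested, since the genes were chosen with these values in view. Alas2 and Slc4a1 lay below day 0 at day 4. At day 18 Slc4a1 overlapped with day 0, as did Alas2 after scaling of the libraries.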

How the results depend on the processing

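The direction of the haemoglobin sum held with library totals in place of scaling factors, where its log2 difference was -0.829 for day 4 against day 0, 0.628 for day 18 against day 0 and 1.46 for day 18 against day 4. It also held without each library in turn (-0.926 to -0.84, 0.501 to 0.586 and 1.40 to 1.45). For Slc4a1 at day 18 against day 0 the value ran from -0.204 (without day 0 A) to 0.382 (without day 0 B), and was -0.111 without day 18 B, so that it reversed 2 times. With 1 prior spread for all levels, called genes numbered 0 at day 4 against day 0, 2618 at day 18 against day 0 and 1357 at day 18 against day 4, instead of 1725, 5032 and 3703. Other lineage genes then numbered 0 instead of 7 at day 4 and 6 instead of 17 at day 18 against day 4. The cause was not tested. Leaving out each library in turn gave 916 (without day 0 B; 999 without day 0 A) to 1565 called genes at day 4 against day 0, 3649 to 5346 at day 18 against day 0 and 2556 to 3576 at day 18 against day 4. For other lineage genes it gave 4 (without day 0 A) to 7, 13 to 20, and 11 (without day 18 B) to 17. With library totals 73.2% instead of 45.1% of called genes were higher at day 4, and 70.7% instead of 51.3% at day 18 against day 0. Of 59 calls of named genes, 44 held in every alternative run but the 1 prior spread, with which 28 still did. No pairing of libraries is given in the labels of the columns. With the column letter as a replicate block, 7, 18 and 17 other lineage genes and 1669, 4939 and 3672 genes were called, and deviations of libraries with the same letter correlated at -0.042 to 0.0018. Depth limits Klf1 and the other lineage genes with too few reads.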
